A study of Mus musculus with 93 samples.

Results

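Blood leukocytes of tumor-bearing MMTV/c-MYC mice were compared between the arrays with the highest and the arrays with the lowest interferon score. The score was meant to rest on 5 interferon-induced genes, Isg15, Ifit1, Ifit3, Oasl2 and Rsad2, each read from the probe set of that gene alone with the highest mean over all arrays. The annotation held no probe set for Isg15 alone, only a probe set shared with Gm9706, so the score used 4 genes and was the mean of their z values over 51 tumor arrays. The 17 arrays with the highest and the 17 with the lowest score were compared, of 51 arrays ranked and 93 arrays in the series. The ranked arrays were the tumor training arrays numbered from 6 to 32 and the tumor validation arrays numbered from 9 to 33, without validation array 19. The arrays were therefore selected on measured values, and the differences of the score genes between them are a description.

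The series profiled peripheral blood leukocytes of 65 samples from tumor mice and 28 samples from tumor-free mice, in a training and a validation cohort. All mice were FVB females. The tumor mice (strain FVB/NJ, genotype MMTV/c-MYC transgenic) came from several lines and were bred continuously. They carried c-MYC or a stabilized point variant of it under the hormone-responsive MMTV long terminal repeat, which drives it in the mammary gland. The paper describes their mammary tumors as advanced. The controls were wild type, tumor-free and matched for age and parity, and the labels give no age for any array. The 13 other tumor arrays compared below, called early-numbered, are training arrays 1 to 5 and validation arrays 1 to 8. After submandibular bleeding and red cell lysis, leukocyte RNA was amplified (NuGEN Ovation) and hybridized to Affymetrix mouse genome arrays, and the deposited values are RMA levels on the log2 scale. The paper gives as many mice as samples in each cohort. Mice were bled repeatedly and the labels do not identify them, so whether arrays share an animal cannot be checked here. A p-value here reflects variation among arrays, which may be partly technical.

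Interferons are secreted when cells sense viral nucleic acid or related signals. Type I interferons act through Ifnar1 and Ifnar2 and the kinases Jak1 and Tyk2 on a complex that includes Stat2 and Irf9 and binds the interferon-stimulated response element (ISRE), and interferon gamma acts through Ifngr1 and Ifngr2 on genes with the GAS element. The genes they induce include RNA-binding and RNA-degrading antiviral proteins, the ubiquitin-like modifier Isg15 with its enzymes, large GTPases and inhibitors of the pathway itself, and blood leukocytes are a common place to read this response.

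The sequences before the start sites of the 4 genes that defined the ranking, of Isg15, which was meant to, and of the single interferon-induced gene called below are shown for the ISRE letters they hold. The ISRE core was searched on both strands as GAAANNGAAA in the 250 bases before and 50 bases after the start in RefSeq's windows on GRCm38.p6, and matches may overlap. The 250 bases before each start are given 5′ to 3′ on the strand of the gene, with each match in capitals.
Isg15, chr4:156200819-156201068, minus strand: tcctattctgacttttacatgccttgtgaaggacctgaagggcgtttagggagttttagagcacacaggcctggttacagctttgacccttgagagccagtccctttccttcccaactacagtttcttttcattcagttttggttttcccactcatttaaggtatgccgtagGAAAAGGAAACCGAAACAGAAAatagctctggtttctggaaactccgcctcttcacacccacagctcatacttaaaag
Ifit1, chr19:34640639-34640888, plus strand: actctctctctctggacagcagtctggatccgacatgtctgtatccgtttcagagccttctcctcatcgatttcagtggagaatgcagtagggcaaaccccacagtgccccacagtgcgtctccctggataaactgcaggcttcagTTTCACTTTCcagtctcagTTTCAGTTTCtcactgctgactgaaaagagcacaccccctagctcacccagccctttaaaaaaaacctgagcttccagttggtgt
Ifit3, chr19:34583279-34583528, plus strand: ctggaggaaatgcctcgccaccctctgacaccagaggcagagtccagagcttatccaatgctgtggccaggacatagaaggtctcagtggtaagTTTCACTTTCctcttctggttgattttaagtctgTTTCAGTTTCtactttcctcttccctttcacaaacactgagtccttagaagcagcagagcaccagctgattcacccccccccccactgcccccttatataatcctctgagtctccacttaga
Rsad2, chr12:26456453-26456702, minus strand: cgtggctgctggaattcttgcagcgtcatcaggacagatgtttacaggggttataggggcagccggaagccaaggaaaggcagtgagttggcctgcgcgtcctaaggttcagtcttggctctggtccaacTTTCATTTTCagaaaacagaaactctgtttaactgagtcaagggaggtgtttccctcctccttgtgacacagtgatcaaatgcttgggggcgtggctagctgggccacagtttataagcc
Oasl2, chr5:114896684-114896933, plus strand: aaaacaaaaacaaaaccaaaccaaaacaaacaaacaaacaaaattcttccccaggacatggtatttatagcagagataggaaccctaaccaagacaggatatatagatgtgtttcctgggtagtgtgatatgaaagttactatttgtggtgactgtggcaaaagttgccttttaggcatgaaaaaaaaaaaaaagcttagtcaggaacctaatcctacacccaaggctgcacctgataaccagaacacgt
Oas3, chr5:120777660-120777909, minus strand: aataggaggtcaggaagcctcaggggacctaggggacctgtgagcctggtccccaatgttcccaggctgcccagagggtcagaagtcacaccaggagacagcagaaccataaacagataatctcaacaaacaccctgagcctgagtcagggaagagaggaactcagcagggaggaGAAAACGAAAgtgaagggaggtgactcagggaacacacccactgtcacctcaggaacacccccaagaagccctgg
The Isg15 window held 3 overlapping matches, the Ifit1 window 2 beginning at -104 and -85, the Ifit3 window 2 beginning at -156 and -122, the Rsad2 window 1 at -120 and the Oas3 window 1 at -75. The Oasl2 window held 0, which says only that these letters are not in it. Among 54 antiviral effector, ISGylation and GTPase genes with a window, 22 (40.7%) held the core, against 521 of 14448 tested genes (3.61%). The GAS core TTCNNNGAA, which reads the same on both strands, stood in 12 (22.2%) of the 54 and in 1239 (8.58%) of all, and in 0 of the windows printed. A gene was counted when any of its windows held the letters, and a match is not evidence of a bound site.

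The score ran from -1.81 to 1.86 over the 51 arrays. Tumor training array 29 stood at the top with 1.86, well above tumor training array 32 with 0.95, and tumor training arrays 8 (-1.81) and 15 (-1.55) stood at the bottom. The limits fell inside a dense run of arrays: the last high array had a score of 0.19 and the next array 0.18, and the first low array had -0.076 and the array above it -0.073. The high arrays held 8 training and 9 validation arrays and the low arrays 12 and 5, a split that Fisher's exact test did not tell apart (two-sided p = 0.296). On the same scale the 28 control arrays lay between -1.01 and 1.07 with a median of -0.47, and the 13 early-numbered tumor arrays between -1.10 and 0.38 with a median of -0.065.

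**Figure D1:**
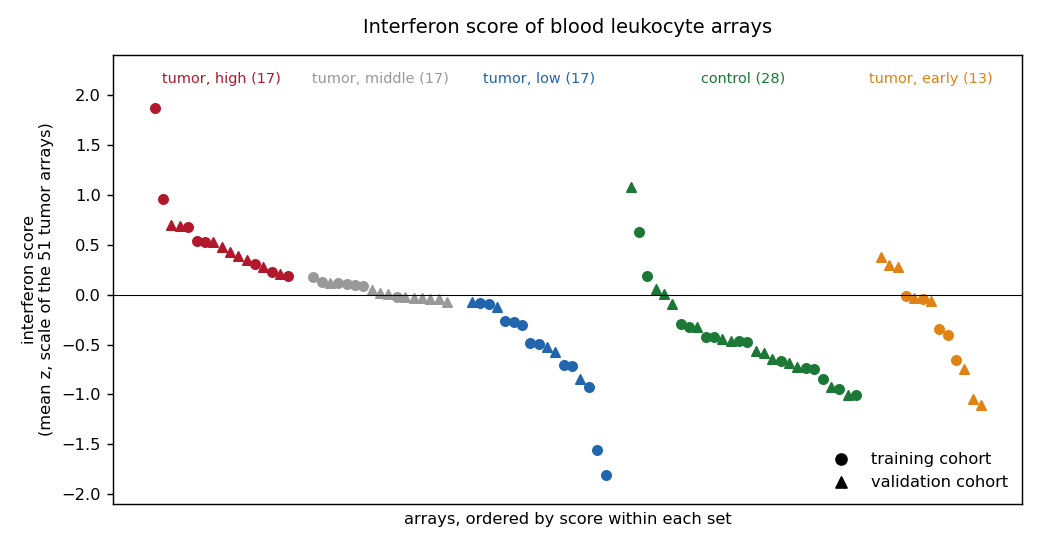
Interferon score (mean z on the scale of the 51 tumor arrays, y axis) of every array, ordered within each set; circles are training and triangles validation arrays. The 17 high arrays run from 0.19 to 1.86, the 17 low arrays from -1.81 to -0.076, and 1 array stands apart at the top and 2 at the bottom.

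The high arrays were not high in every gene of the score. Ifit1, an RNA-binding antiviral protein, ran on the log2 scale from 7.49 over a median of 8.08 to 9.64 in the high arrays and from 5.78 over 7.17 to 7.65 in the low arrays. Its relative Ifit3 ran from 7.83 over 8.49 to 9.84 and from 6.01 over 7.90 to 8.72. For Ifit1, 15 of the 17 high arrays lay above every low array, and for Ifit3 only 4 did. Rsad2 (viperin), an enzyme that makes a chain-terminating nucleotide, averaged 13.5 ± 0.23 (SD, n = 17) in the high and 13.2 ± 0.25 (SD, n = 17) in the low arrays, with 8 high arrays inside the range of the low arrays. A dimmer probe set of Rsad2 that the score did not use averaged 11.4 ± 0.86 and 10.0 ± 1.02 (SD, n = 17 each), a wider gap. Oasl2, a protein of the oligoadenylate synthetase family, averaged 10.4 ± 0.59 and 10.1 ± 0.78 (SD, n = 17 each), a difference smaller than either SD, and 15 of the high arrays lay inside the range of the low arrays. The probe set shared by Isg15 and Gm9706 was not part of the score and averaged 10.7 ± 0.79 in the high, 9.87 ± 0.52 in the middle and 9.22 ± 0.62 in the low arrays (SD, n = 17 each). Transcripts of Isg15 and Gm9706 cannot be told apart on it.

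**Figure D2:**
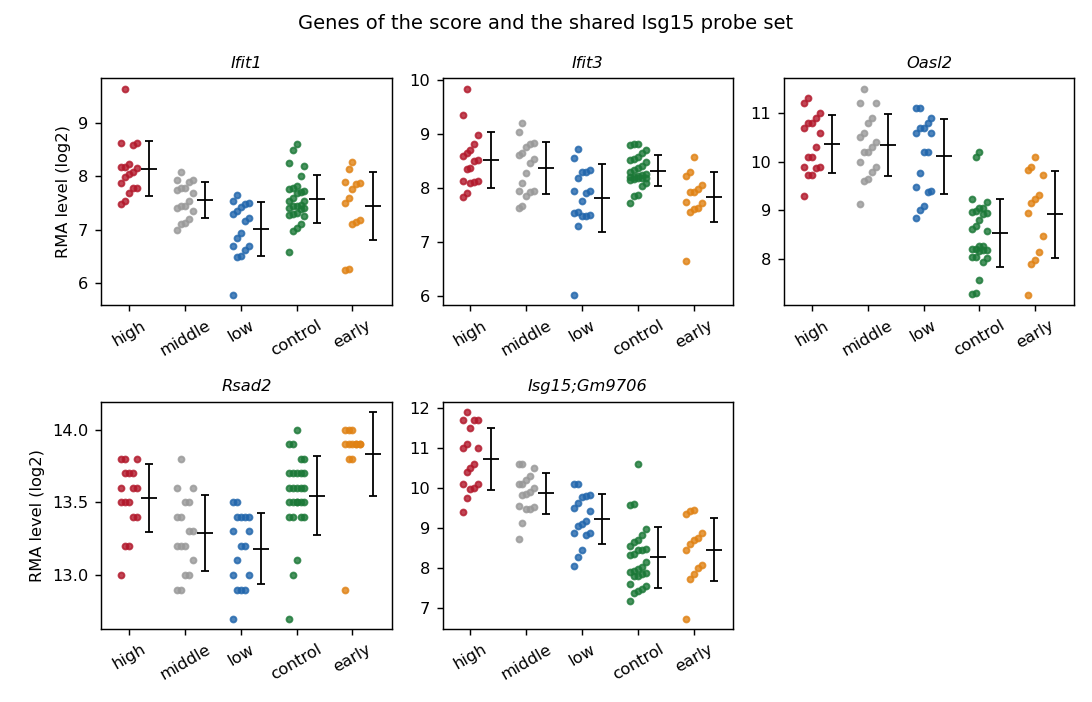
RMA log2 level (y axis) of the 4 genes of the score and of the probe set shared by Isg15 and Gm9706 in each array; bars are mean and SD. Ifit1 and the shared probe set fall from high to low arrays. Oasl2 overlaps almost wholly between the high, middle and low tumor arrays. It is lower in the control (mean 8.53) and in the early-numbered tumor arrays (mean 8.92).

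Over the 51 tumor arrays the genes of the score did not form 1 axis. Ifit1 and Ifit3 rose and fell together (Pearson r = 0.77, Spearman rho = 0.62), and so did Rsad2 and the shared Isg15 probe set (r = 0.77, rho = 0.74). Oasl2 ran against Ifit3 (r = -0.27, rho = -0.36) and against Rsad2 (r = -0.28, rho = -0.30), and had next to no relation with Ifit1 (r = -0.04, rho = -0.07). These are descriptions over arrays that share the ranking, with no p. Each of 68 other genes of the antiviral effector, ISGylation and GTPase lists was set beside the 4 score genes, without the shared Isg15 probe set. Of the 68, 40 were most like Oasl2 by r, led by Oas2 (0.88), Trim34a (0.83) and Gbp2 (0.82). Others of the 40 followed it weakly, such as Lgals9 (0.16) and Nmi (0.20), and the median r with Oasl2 over the 68 was 0.41. Oas3, counted with Oasl2 (0.54), was closer to the shared Isg15 probe set (0.62). Ifit1 was the closest for 14, led by Usp18 (0.73) and Slfn8 (0.64), and Ifit3 for 10, led by Ifit2 (0.87) and Igtp (0.72). Rsad2 was the closest for 4, led by Ube2l6 (0.85) and Isg20 (0.82). Points share their array's quality and cell makeup.

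In the 28 control arrays, which the ranking did not use, 4 of the 10 pairs had an r that passed at an adjusted p under 0.05 (permutation test, two-sided, 100000 resamples, Benjamini-Hochberg over 10 pairs). Ifit1 and Oasl2, unrelated in the tumor arrays, had r = 0.53 (p = 0.0039, adjusted p = 0.013) but rho = 0.34 (p = 0.074, adjusted p = 0.15). Without the 2 arrays with the highest scores, control validation array 2 and control training array 1, that r was 0.21. For Ifit1 and Ifit3, r was 0.50 (p = 0.0074, adjusted p = 0.018), rho was 0.48 (p = 0.011, adjusted p = 0.037) and r without those arrays 0.28. Rsad2 and the shared Isg15 probe set gave r = 0.63 (p = 0.00083, adjusted p = 0.0083) and rho = 0.69 (p = 0.00011, adjusted p = 0.0011), and 0.63 for r without those arrays. The remaining pair was Ifit1 with that probe set, at r = 0.54 (p = 0.0032, adjusted p = 0.013), rho = 0.48 (p = 0.011, adjusted p = 0.037) and r = 0.44 without those arrays.

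Other measures moved with the ranking. The 18S ribosomal control probe set averaged 9.17 ± 0.88 in the high and 8.25 ± 0.40 in the low arrays (SD, n = 17 each, permutation test, two-sided, adjusted p = 0.00174 over 6 measures). The bacterial dap spike-in averaged 8.63 ± 0.68 and 7.91 ± 0.61 (permutation test, adjusted p = 0.00555, n = 17 each), and it was low in the control (mean 2.82) and early-numbered tumor arrays (3.09). The array median, the 5′ minus 3′ differences of the actin and GAPDH controls and the number in the label gave adjusted p between 0.634 and 1.0 in the same permutation test. The values are deposited with 3 significant digits, which makes the actin and GAPDH differences coarse.

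Few genes passed the threshold between high and low arrays. Of 18189 genes, each read from its probe set with the highest mean, 1 was higher in the high arrays (0.0055%) and 7 were lower (0.0385%) at an adjusted p under 0.05, 8 in all (0.044%, limma with cohort as a covariate, Benjamini-Hochberg over 45030 probe sets). At an unadjusted p under 0.05 the count was 3976 (21.9%). Oas3, an enzyme that makes 2-5A to activate RNase L, was the gene called higher. The genes called lower were Ednrb, Prtn3, Eps8, Shtn1, Fcgr2b, Trem2 and Capg, which are not genes of the interferon lists. Counted as probe sets, 2 were higher and 13 lower, adding 1 probe set of G3bp2 (0.57) among the higher, and 1 of Ccr2 (-0.99), further ones of Eps8 and Fcgr2b and 1 without a gene name among the lower. In bulk blood, fewer cells of a type and less RNA per cell cannot be told apart.

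Oas3 ran from 8.48 over a median of 9.39 to 10.1 in the high arrays and from 7.51 over 8.53 to 9.31 in the low arrays. The groups overlapped, with 10 of the 17 high arrays above every low array. The difference was 0.94 ± 0.17 (SE) on the log2 scale with an adjusted p of 0.0407 by limma, and it was 0.75 in the training and 1.23 in the validation arrays alone. Oas3 was still higher in the control arrays (10.2 ± 0.74, SD, n = 28), and their median of 10.2 lay above the highest high array. The early-numbered tumor arrays had a similar level (10.3 ± 0.47, SD), so it was not particular to tumor-free mice. The dap spike-in was low in the control (mean 2.82) and early-numbered tumor arrays (3.09). It averaged 8.63 in the high and 7.91 in the low arrays. Its part in the Oas3 levels was not tested.

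Ednrb, a G protein-coupled receptor for endothelins, was dim, with means of 4.01 in the high and 5.58 in the low arrays around the median of all probe sets (4.79), and without detection calls the high arrays may lie at background. It ran from 2.97 over 3.93 to 5.30 in the high arrays and from 4.10 over 5.65 to 6.74 in the low arrays, with 9 high arrays below every low array. The difference was -1.63 ± 0.26 (SE, limma, adjusted p = 0.0123), and the control arrays, with a mean of 4.06 ± 1.05 (SD, n = 28), were near the high arrays.

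Prtn3, the neutrophil serine protease proteinase 3, ran from 5.56 over 6.50 to 8.16 in the high arrays and from 6.60 over 8.03 to 8.58 in the low arrays. Most low arrays lay close together near their top, and 7 of the high arrays reached into their range. The difference was -1.19 ± 0.23 (SE, limma, adjusted p = 0.0473), with -1.52 in the training and -0.70 in the validation arrays. The control mean was 5.88 ± 0.99 (SD, n = 28).

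The other genes lower in the high arrays are surface receptors and actin regulators of myeloid cells among other cells. Fcgr2b, the inhibitory Fc gamma receptor, had a median of 9.83 in the high and 10.5 in the low arrays (-0.81 ± 0.16, SE), and 4 of its probe sets were called. Trem2, a lipid-sensing receptor of macrophages, had medians of 6.81 and 7.42 (-0.68 ± 0.13). Capg, which caps actin filaments, had medians of 10.2 and 10.6 (-0.60 ± 0.12). Eps8, an actin-bundling and capping protein, had medians of 5.84 and 6.72 (-1.05 ± 0.20), and Shtn1 (shootin), known from growing axons, 7.05 and 7.91 (-0.92 ± 0.18). For each of these 5 the groups overlapped, and 15 to 17 of the 17 high arrays lay below the median of the low arrays. All 7 genes were lower in both cohorts, but they were picked by the fit of both cohorts together, so this is not a separate test. In the validation arrays alone, with 9 high and 5 low arrays, 0 genes were called.

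**Figure D3:**
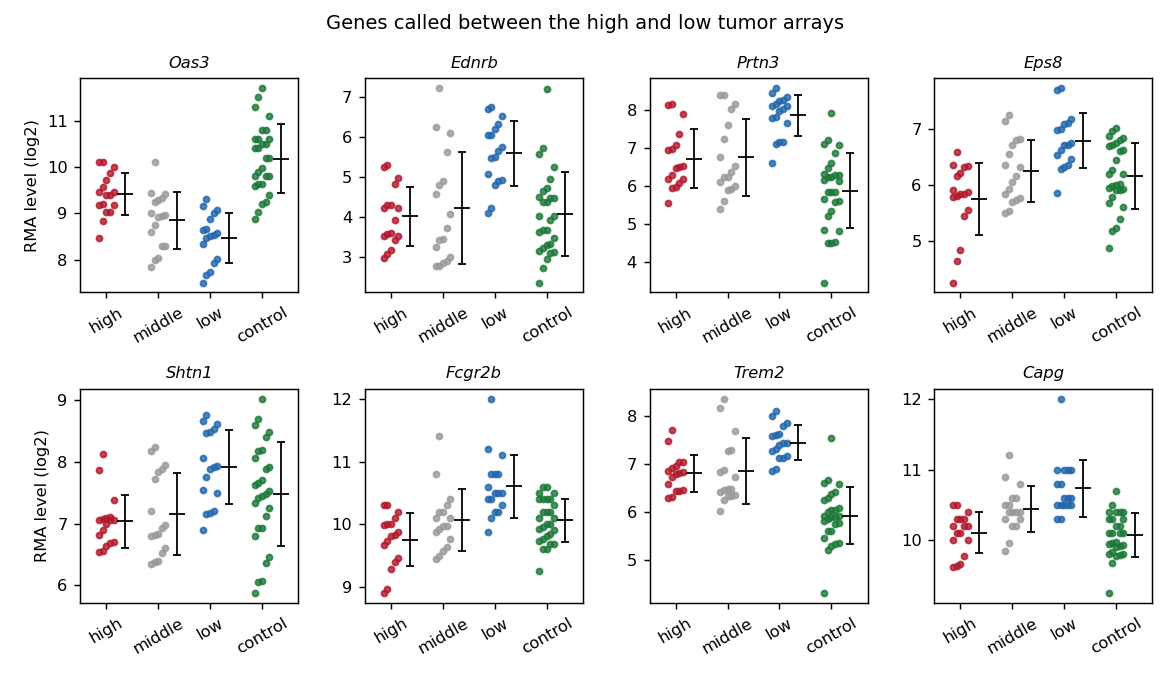
RMA log2 level (y axis) of the 8 genes called between high and low tumor arrays, by array; bars are mean and SD, and the control arrays are shown beside them. Oas3 is higher and the other 7 genes lower in the high arrays, with overlap in every panel.

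Few genes of the interferon pathway passed the threshold between high and low arrays. Over the 10 interferon lists, 131 genes were measured, 1 was called higher (Oas3) and 0 lower. Of the 131, 25 above and 5 below 0 had an unadjusted p under 0.05, beside 2194 above and 1782 below 0 of all 18189 genes. The median difference of the 131 was 0.049, beside 0.019 over all genes. The 7 interferon ligands measured all had positive differences, between 0.048 and 0.47, with none called. Ifna5 was at 0.47 ± 0.15 (SE, limma, adjusted p = 0.107), Ifng at 0.32 ± 0.22 (adjusted p = 0.401), Ifna2 at 0.22 ± 0.08 (adjusted p = 0.140) and Ifnb1 at 0.21. The mean level of the list was 3.78 in the high and 3.57 in the low arrays, under the median of all probe sets (4.79), and without detection calls these probe sets cannot be said to be above background. Of the 6 receptor chains, 5 had negative differences, and Ifngr1, the ligand-binding chain for interferon gamma, was at -0.36 ± 0.14 (adjusted p = 0.163).

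Among the signalling genes 0 were called. Stat2 was at -0.0065, Irf9 at 0.092, Jak1 at 0.083, Tyk2 at -0.18 and Stat3 at -0.24 (limma, adjusted p = 0.233). Among the 6 interferon regulatory factors, 5 lay between -0.17 and -0.033, and Irf7, the factor that amplifies type I interferon production, was at 0.39 ± 0.14 (SE, adjusted p = 0.144). Of 17 nucleic acid sensors and adaptors, 7 had positive differences, with Mavs, the mitochondrial adaptor, at 0.35 and the double-stranded RNA receptor Tlr3 at -0.26.

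The antiviral effectors were mixed. Of 54 measured, 34 had positive differences, 1 was called and the median was 0.063, with 13 above and 2 below 0 at an unadjusted p under 0.05. The same counts over all 18189 genes were 2194 above and 1782 below 0. Rtp4 was at 0.95 ± 0.22 (SE, limma, adjusted p = 0.066), Oasl1 at 0.78 ± 0.22 (0.0763), Isg20, an RNA exonuclease, at 0.49 ± 0.13 (0.0685), Slfn8 at 0.50 and Ifit2 at 0.62. Ifitm6 lay at the other end at -0.61 ± 0.18 (adjusted p = 0.0892), with Ifitm1 at -0.22, Ifitm2 at -0.17 and Ifitm3 at -0.15, and Parp9, Tdrd7 and Tor3a within 0.01 of 0.

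The genes of Isg15 conjugation had the largest median of the interferon lists, 0.50 over 4 genes, all positive. Usp18, the protease that removes Isg15 and also restrains the type I receptor, was at 0.76 ± 0.16 (SE, limma, adjusted p = 0.0593), the conjugating enzyme Ube2l6 at 0.68 ± 0.16 (0.0658), the ligase Herc6 at 0.32 and the activating enzyme Uba7 at 0.26. Of 10 GTPases of the GBP and IRG families, 9 were positive, with a median of 0.26. Igtp (0.31), Gbp7 (0.25) and Irgm1 (0.37) were among them, while Gbp2 was at 0.0044 and Gbp3 at -0.17. Among 12 genes known for induction by interferon gamma the median was 0.027, with Cxcl10 at 0.39, Cd274 at 0.27 and Ciita at -0.27. Of 10 feedback inhibitors 5 were positive, Usp18 first, with Socs1 at 0.19 and Socs3 at -0.097. Outside the score, the interferon genes past the threshold thus came to Oas3, with 0 receptors, kinases, STAT factors or sensors called. That is 1 of 131, beside 8 of all 18189 genes (0.044%), and 1 call says little about the share. Oas3 was itself related to score genes over the ranked arrays (r = 0.54 with Oasl2, 0.42 with Ifit1, 0.23 with Rsad2, -5.6e-05 with Ifit3). With the score as a continuous covariate, 28 of the 131 were called (26 higher, 2 lower), beside 2584 of all 18189 genes.

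**Figure D4:**
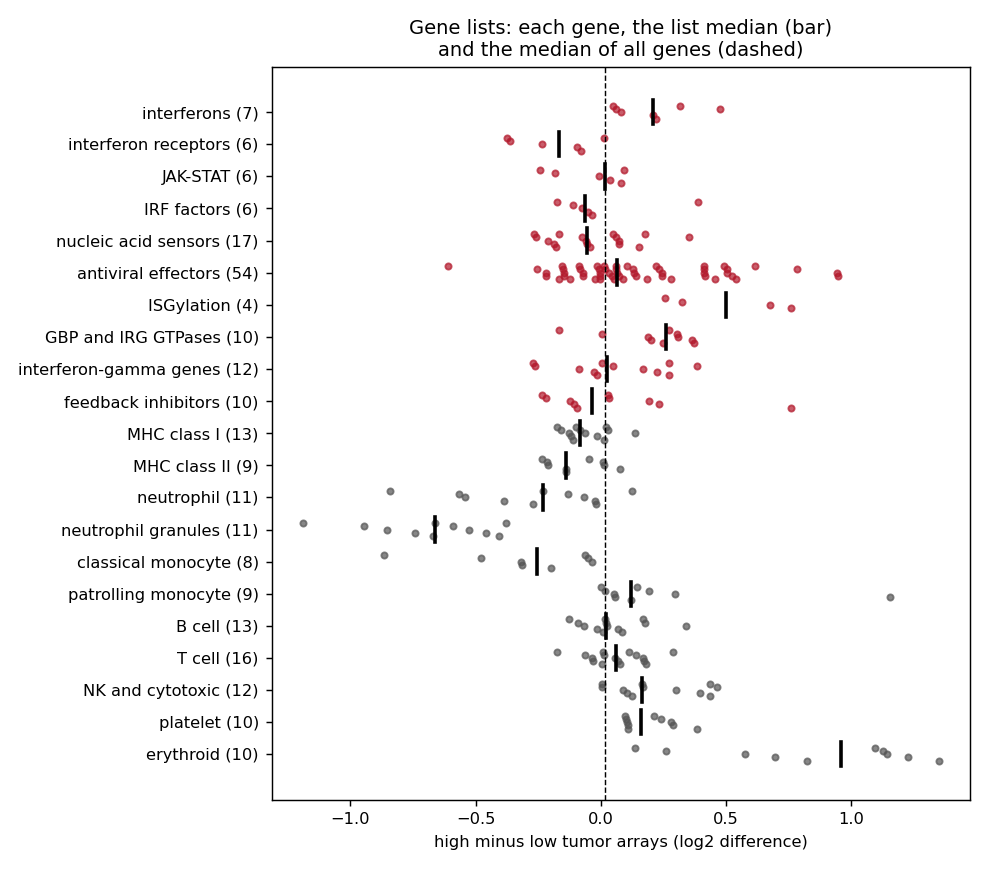
Difference between high and low tumor arrays (log2, x axis) for each gene of the interferon lists (red) and of cell lists (grey); the number of genes measured is in parentheses, bars are list medians and the dashed line is the median of all genes. The erythroid list (0.96) and the neutrophil granule list (-0.66) lie farther from the dashed line than any interferon list.

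The lists farthest from the median of all genes were not interferon lists. All 10 erythroid genes measured had positive differences, with a median of 0.96 and 9 at an unadjusted p under 0.05, and 0 were called. Klf1, the erythroid transcription factor, was at 1.35 ± 0.35 (SE, limma, adjusted p = 0.0685), spectrin beta (Sptb) at 1.23 and the heme synthesis enzyme Alas2 at 0.26. The mean level of the list ran from 7.61 over 8.85 to 10.6 in the high and from 6.94 over 8.05 to 8.92 in the low arrays. Red cells were lysed in the preparation, and the groups overlapped in this mean.

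All 11 neutrophil granule genes measured had negative differences, with a median of -0.66, 9 of them at an unadjusted p under 0.05, and Prtn3 was called. Chil3 was at -0.66 ± 0.16 (SE, limma, adjusted p = 0.066), lactoferrin (Ltf) at -0.95, Fcnb at -0.85, Camp at -0.74, neutrophil elastase (Elane) at -0.53 and myeloperoxidase (Mpo) at -0.46. These proteins are made in the bone marrow during neutrophil maturation. The mean level of the list ran from 7.11 over 7.86 to 8.46 in the high and from 7.27 over 8.42 to 9.62 in the low arrays. Markers of mature neutrophils lay closer to 0, with a median of -0.23 over 11 genes, S100a8 at -0.025 and Cxcr2 at -0.017, but Cd177 at -0.84 and Mmp8 at -0.54. All 8 classical monocyte genes were negative, with a median of -0.26, Vcan at -0.86 and Fn1 at -0.48. Cd36, counted with patrolling monocytes, was at 1.16, and the other 8 genes of that list lay between 0.0020 and 0.30. That list went opposite ways by cohort, with a median of 0.47 and 9 of 9 genes positive in the training arrays and -0.42 and 1 of 9 in the validation arrays.

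B cell genes (13 measured) had a median of 0.020, platelet genes (10) 0.16 and NK and cytotoxic genes (12) 0.17, with 0 called in each. T cell genes had a median of 0.063 over 16 genes in both cohorts together, but 0.36 in the training and -0.45 in the validation arrays. NK and cytotoxic genes likewise had medians of 0.42 (12 of 12 positive) and -0.18 (3 of 12 positive), and B cell genes 0.071 and -0.092. A test of the interaction of the comparison with cohort called 0 genes by limma, and 692 had an unadjusted p under 0.05.

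The measures that moved with the ranking were entered in the fit as covariates. The median over the 68 antiviral effector, ISGylation and GTPase genes was 0.13 with 47 of them positive. With the 18S control as a covariate, added after the data were seen, it was 0.24 with 63 positive, with the erythroid mean 0.20 with 62 positive, with the dap spike-in 0.19 with 62 positive and with the neutrophil, B cell and T cell means 0.18 with 62 positive. In the same fits the count of all genes called fell from 8 to 0 with the 18S control, 1 with the erythroid mean (Rtp4, 1.34, adjusted p = 0.0204), 0 with the dap spike-in and 1 with the leukocyte means (Oas3, 1.08, adjusted p = 0.0132, limma). Oas3 was at 0.80 (adjusted p = 0.995) with the 18S control and at 0.90 (adjusted p = 0.686) with the erythroid mean. At an unadjusted p under 0.05, 645 genes were left with the 18S control, 773 with the dap spike-in and 628 with the erythroid mean, of the 3976. Without the 2 highest and 2 lowest arrays by score, 0 genes were called by limma, 2513 had an unadjusted p under 0.05 and the median was 0.10.

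Leaving single genes out of the score changed both the groups and the calls. Without Rsad2, 10 of the 17 high and 13 of the 17 low arrays stayed in their groups and 25 genes were called. Ranked by Ifit1, Ifit3 and Rsad2 alone, 12 of the 17 high and 12 of the 17 low arrays stayed, and 5148 genes were called (28.3%), 2464 higher and 2684 lower. Of the 131 interferon genes, 23 were then called higher and 29 lower. Cell markers moved with them, with 11 of 11 neutrophil granule and 9 of 11 mature neutrophil genes called lower, and 11 of 12 NK and cytotoxic, 12 of 16 T cell and 9 of 10 erythroid genes called higher, and their part in the result was not tested. Ifit2 was at 1.15 and Isg20 at 0.57 among the higher, and Gbp2 at -0.76, Oas2 at -0.77 and Ifitm1 at -0.72 among the lower, whereas Oas3 (0.10) was not called. Ranked without Ifit1, 0 genes were called by limma and 3234 had an unadjusted p under 0.05.

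The control arrays are blood that the ranking did not use. There the 4 genes were scored with z values taken over the 28 control arrays, so that a unit of score is not that of the tumor arrays, and the score as a continuous measure had 38 genes with a positive slope (0.209% of genes) and 15 with a negative slope (0.0825%), 53 in all (0.291%), with 2755 (15.1%) at an unadjusted p under 0.05 (limma with cohort as a covariate). Of the 131 interferon genes, 18 were among the 38 and 0 among the 15, and 64 had a positive and 7 a negative slope at an unadjusted p under 0.05. The slopes, as log2 change per unit of score, were 1.16 ± 0.20 (SE, adjusted p = 0.0105) for Gbp2, 0.83 for Irgm1, 0.78 for Irgm2, 0.96 for Rtp4, 0.89 for Oas2, 0.84 for Oas3, 0.45 for Irf7 and 0.42 for Irf9. Chemokines that attract T cells were among them, Cxcl11 at 1.14 and Cxcl10 at 0.96.

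In control blood the GTPases moved together. All 10 had positive slopes, 6 of them called, with a median of 0.71 beside 0.0090 over all genes. Of 54 antiviral effectors 49 had positive slopes, 5 of them called, with a median of 0.23. All 13 B cell genes had negative slopes, with a median of -0.45, and Blk (-0.66), a kinase of B cells, and Cd79b (-0.49), a chain of the B cell receptor, were called. Ighm (-0.52), the heavy chain of IgM, and Spib (-0.50), a transcription factor of B cells and plasmacytoid dendritic cells, stood outside that list and were called too. Among the 38 genes called higher, 12 of 31 with a window (38.7%) held the ISRE core. Among the 15 called lower 1 of 10 did, and among all tested genes 3.61%. Interferon lists hold 18 of the 38, and 40.7% of the antiviral effector, ISGylation and GTPase genes held the core. The share is therefore not separate support for a response.

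The calls were lost without 2 arrays, while many slopes stayed near their size. Control validation array 2 and control training array 1 had the highest scores, and without them 0 genes were called by limma and 1211 had an unadjusted p under 0.05. Then 30 of the 131 interferon genes still had a positive and 4 a negative slope at an unadjusted p under 0.05, and 9 of 10 GTPases (median 0.63) and 47 of 54 effectors (median 0.19) had positive slopes. Oas3 was then at 0.99, Gbp2 at 0.93 and Cxcl11 at 0.018. All 13 B cell genes again had negative slopes, with a median of -0.52.

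The genes called in the tumor and control comparisons overlapped in 1 gene, Oas3. That is 12.5% of the 8 genes called between high and low tumor arrays, beside 0.291% of all genes called in control arrays. It is 1.89% of the 53 called in control arrays, beside 0.044% of all genes called between high and low tumor arrays. With 8 calls on 1 side, the overlap says little either way. Prtn3 had a slope of 0.46 (adjusted p = 0.445) and Ednrb of -0.29 (adjusted p = 0.714) in control arrays. In the 13 early-numbered tumor arrays 0 genes were called in either direction (0.0%), and 2139 (11.8%) had an unadjusted p under 0.05 by limma. With z values over those 13 arrays, 62 of the 68 antiviral effector, ISGylation and GTPase genes had positive slopes, beside 11707 of all 18189 genes. The median slope was 0.38 for the 68 and 0.12 over all genes.

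**Figure D5:**
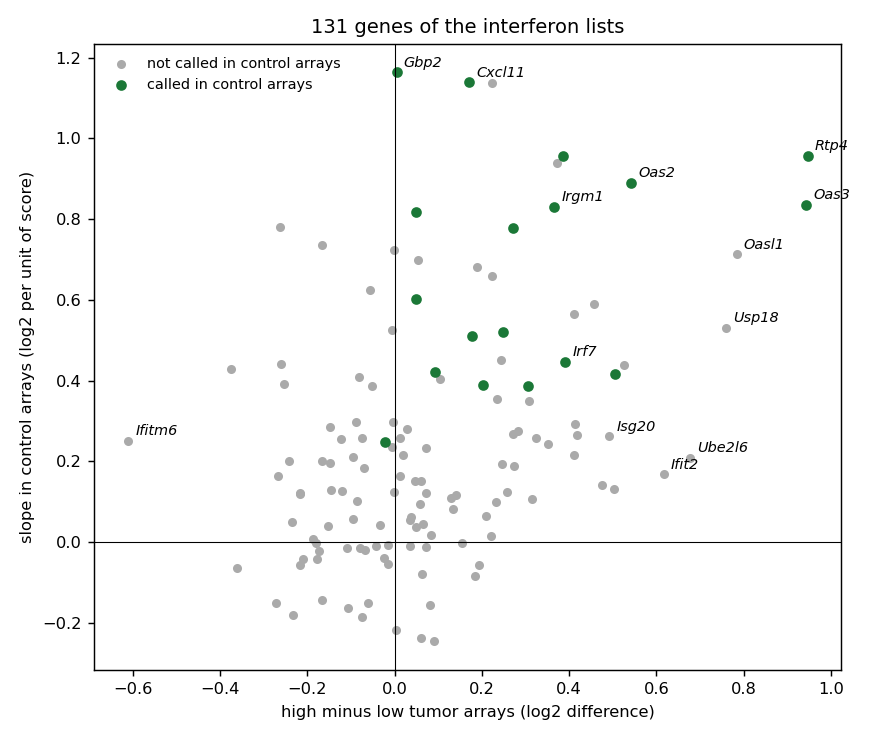
Each of the 131 genes of the interferon lists, by its difference between high and low tumor arrays (log2, x axis) and its slope on the score in the 28 control arrays (log2 per unit of score, y axis); green marks genes called in control arrays. Oas3 and Rtp4 lie far from 0 on both axes, whereas Gbp2 has a slope of 1.16 in control arrays and a difference of 0.0044 between tumor arrays.

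The slope on the score differed between tumor and control blood for some of these genes. In a fit of all 51 tumor and 28 control arrays on the z scale of the tumor arrays, chosen after the data were seen, 5 genes had a higher slope in tumor arrays (0.0275%) and 136 a lower one (0.748%), 141 in all (0.775%), with 2603 (14.3%) at an unadjusted p under 0.05. Of the 131 interferon genes 5 were among them, Gbp2, Ifitm6, Fcgr1, Parp12 and Gbp3, all with a lower slope in tumor arrays. Cell markers moved in the same fit, with 4 of 11 mature neutrophil genes and 2 of 11 neutrophil granule genes called lower (8 and 9 at an unadjusted p under 0.05), and 11 of 13 B cell genes above 0 at an unadjusted p under 0.05 with 0 called, and their part in the interferon slopes was not tested. Without the 2 control arrays named above 0 genes were called and 1502 had an unadjusted p under 0.05. Tumor and control arrays also differ in the dap spike-in, which cannot be told apart from tumor status in this fit.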

How the data were processed

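Leukocyte RNA was hybridized to 93 arrays. The authors deposited RMA levels on the log2 scale. RMA corrects background, quantile-normalizes and condenses each probe set by median polish, and its version is not given in the sources used here. Whether the deposited values hold the study's standardization on control probe sets is not stated. Some leukocyte pellets were stored before extraction and some extractions were automated, and the labels do not say which.

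Of 45101 probe sets, 64 are controls. A platform annotation gave 34945 a single symbol, 932 several and 9160 none, and 34741 of the first matched RefSeq by Entrez identifier. Genes (18193) were read from their probe set with the highest mean. Genes that share all their probe sets with another symbol were not tested as genes, Isg15 among them.

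The members and the gene lists were chosen with earlier results of these data known. Values were fitted with limma 3.58.1 in R 4.3.3 (lmFit, eBayes with trend, two-sided, cohort as a covariate), with Benjamini-Hochberg adjustment over 45030 probe sets, leaving out 7 of the 5 rule genes, and a call at an adjusted p under 0.05. The fit was tested on simulated data. Every adjusted p of a gene is from limma. Named were the called genes brighter on average than the median probe set (Ednrb, dimmer, was named as 1 of 8), up to 4 genes per list by smallest p, and others of the lists chosen after their values were seen. Arrays give no counts, so the number of arrays limits precision.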

Additional observations from a re-analysis of the deposited data

Results flagged for a closer look

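For 5 of the 131 genes of the interferon lists, the slope on the score differed between the 51 tumor and the 28 control arrays. This was a test of the difference itself (limma, interaction of the score with tumor status, log2 change per unit of score, tumor minus control). Over all 18189 genes the same test called 141 (0.775%), 5 with a higher and 136 with a lower slope in tumor arrays. The difference was -1.44 for Gbp2 (slope 0.075 in tumor and 1.52 in control arrays, adjusted p = 0.0212) and -0.99 for Ifitm6 (-0.55 and 0.44, adjusted p = 0.0348). It was -1.11 for Fcgr1 (0.00041 and 1.11, adjusted p = 0.0402), -0.89 for Parp12 (0.082 and 0.97, adjusted p = 0.0433) and -0.94 for Gbp3 (0.038 and 0.98, adjusted p = 0.0457). Without the 2 control arrays with the highest scores, 0 genes passed this test. Neutrophil genes moved in the same fit (4 of 11 mature neutrophil genes called lower), and their part in the differences and that of the dap spike-in was not tested.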

How the results depend on the processing

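The 8 genes kept their direction in every alternative run, and were called in 7 (Capg) to 14 (Ednrb) of 25 alternatives, 24 for Ednrb. The number of genes called, 8 in the report, depended strongly on the setting, and the cause was not tested. It was 243 without cohort in the fit, 4 with the label number as a covariate, 2 after repeated quantile normalization or centring on array medians, 235 among probe sets above the median level, 5 with array weights, 1 without a trend, 119 for the 12 highest against the 12 lowest, 2584 with the score as a continuous covariate, 34 with z within each cohort, 128 in the training and 0 in the validation arrays alone. It was 0 with the dap spike-in, 1 with the leukocyte means, 1 with the erythroid mean and, for settings added after the data were seen, 0 with the 18S control, 1 with the casein and epithelial mean, 1 with the shared Isg15 probe set in the score, 0, 1, 5148 and 25 without Ifit1, Ifit3, Oasl2 and Rsad2, and 0 without the 2 highest and 2 lowest arrays. Label numbers do not pair arrays, and with the number as a block (consensus correlation -0.095) 1 gene was called and 0 interferon genes.

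Of the interferon genes, 1 in the report, 7 were called without cohort and among probe sets above the median level, 2 with array weights or without Rsad2, 4 for 12 against 12 and with z within cohort, 28 with the continuous score, 52 without Oasl2, and 0 with no trend, the dap spike-in, the 18S control, the casein mean, the validation arrays alone, without Ifit1 and without the 2 highest and 2 lowest arrays. The median difference of 68 interferon-stimulated genes stayed between 0.095 and 0.24 except without Oasl2, where it was -0.011. In control arrays 53 genes became 0 without the 2 farthest arrays, 112 among probe sets above the median level and 89 after repeated quantile normalization. For tumor against control slopes 141 became 0 without those arrays.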

Other observations

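Outside the interferon and blood cell lists, 16 genes of endoplasmic reticulum stress and the secretory pathway had a median of -0.10 between high and low tumor arrays. Of these, 5 were below 0 at an unadjusted p under 0.05, with Sec61b at -0.22 ± 0.06 (SE, limma, adjusted p = 0.0843) and Xbp1 at -0.38. Of 22 ribosomal protein genes, the mitochondrial Mrpl23 among them, 21 had negative differences, with a median of -0.12. Among 19 cell cycle genes the median was 0.10, with Ccna2 at 0.98 and Mki67 at 0.72, and neither was called. Cfp (properdin), which stabilizes the alternative complement convertase, was at -0.59 ± 0.15 (SE, adjusted p = 0.0685), and 10 other complement genes lay between -0.28 and 0.29. MHC class I genes (13) had a median of -0.084 and class II genes (9) of -0.14, with 0 called in each.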
